A study of Sus scrofa with 24 samples.

Results

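The 10 genes described here encode the surface complex with which T cells recognise antigen and the receptors that work beside it: CD3D, CD3E and CD3G, the coreceptors CD4 and CD8A, the kinase LCK, the adhesion and costimulatory receptors CD2, CD5 and CD28, and the interleukin 7 receptor chain IL7R. They were chosen by symbol, and each symbol was matched to 1 Ensembl gene of the pig, giving 10 of the 25880 genes counted. CD3G had no symbol in the name table used here and was matched through the identifier that the study pairs with it. The study sequenced messenger RNA from dorsal subcutaneous fat of 24 male Iberian piglets, each from a different litter, at 33 days of age and 5 days after weaning. The sows had eaten 1 of 4 diets, begun on gestation day 85 and kept up to weaning 28 days after birth, with 6 piglets sequenced per diet. VEHT diets held tocopheryl acetate, the ester form of vitamin E, at 100 mg/kg together with 1.5 mg/kg of hydroxytyrosol, a phenol of the olive. VE diets held 100 mg/kg of tocopheryl acetate without hydroxytyrosol, HT diets held 30 mg/kg of tocopheryl acetate and 1.5 mg/kg of hydroxytyrosol, and control (C) diets held 30 mg/kg of tocopheryl acetate alone. All groups thus received vitamin E, and the piglets met the supplements through the dam. These doses are the amounts added to the feed. The study's analysis of the feed found more vitamin E than the added dose in every diet, with the low and high diets closer together. Libraries are named here by diet and by the animal number of the deposited table.

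On a T cell the αβ or γδ receptor binds antigen but has almost no cytoplasmic tail, and the CD3 γ, δ, ε and ζ chains carry the signal inward through tyrosine motifs that LCK phosphorylates. CD4 and CD8 bind LCK and bring it to the receptor when they touch MHC class II and class I molecules, CD28 supplies the second signal on binding CD80 or CD86, and CD2 and CD5 tune adhesion and signal strength. IL7R carries the interleukin 7 signal that resting T cells need to survive. Fat is a tissue of adipocytes, vessels and stroma in which T cells are a small resident population, and in pigs many γδ T cells lack CD4, while CD8A is carried by NK cells as well as by cytotoxic T cells.

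The 3 CD3 genes lie side by side on chromosome 9 of the Sscrofa11.1 assembly, within 37050 bases. CD3E occupies chr9:45619730-45633972 on the forward strand and CD3D chr9:45640475-45644153 on the reverse strand. CD3G occupies chr9:45645243-45656779 on the forward strand, so that CD3D and CD3G run away from each other with 1089 bases between them. The other members are scattered: CD2 at chr4:103963802-103976971 and CD4 at chr5:63892129-63918547 on the reverse strand, CD5 at chr2:10648973-10673479 on the reverse strand, CD8A at chr3:57999228-58029768, CD28 at chr15:107128103-107155431, IL7R at chr16:21300141-21330156 and LCK at chr6:88719886-88745922 on the forward strand. The 250 bases before the RefSeq start of 4 members are printed below, taken from the RefSeq copy of Sscrofa11.1 and read 5′ to 3′ on the gene's own strand. Those of CD3E and CD3G are shown because these genes varied together across the libraries, and those of CD4 and IL7R because these genes did not follow them. Capitals mark matches, on either strand, to 5 short motifs. TGTGGT is the core bound by factors of the RUNX family, AGGAAG is bound by ETS factors, and CACCTG is the E-box that basic helix-loop-helix factors recognise. AGATAA is bound by the GATA family. The letters TATAAA mark the box of that name close to many starts of transcription.
CD3E, chr9:45619480-45619729, forward strand: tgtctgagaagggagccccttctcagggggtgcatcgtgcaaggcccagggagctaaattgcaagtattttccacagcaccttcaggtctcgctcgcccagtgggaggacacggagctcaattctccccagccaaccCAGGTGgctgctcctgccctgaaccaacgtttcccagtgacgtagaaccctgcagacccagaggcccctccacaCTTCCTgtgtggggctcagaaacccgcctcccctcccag
CD3G, chr9:45644993-45645242, forward strand: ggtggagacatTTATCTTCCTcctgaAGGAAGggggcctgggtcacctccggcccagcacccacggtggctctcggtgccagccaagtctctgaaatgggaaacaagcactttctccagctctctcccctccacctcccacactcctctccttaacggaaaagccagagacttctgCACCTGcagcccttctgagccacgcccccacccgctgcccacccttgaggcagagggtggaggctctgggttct
CD4, chr5:63918548-63918797, reverse strand: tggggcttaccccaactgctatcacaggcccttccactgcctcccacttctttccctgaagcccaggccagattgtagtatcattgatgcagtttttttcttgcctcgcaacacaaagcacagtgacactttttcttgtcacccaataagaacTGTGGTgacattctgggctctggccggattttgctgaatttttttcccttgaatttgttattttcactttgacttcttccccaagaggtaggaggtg
IL7R, chr16:21299891-21300140, forward strand: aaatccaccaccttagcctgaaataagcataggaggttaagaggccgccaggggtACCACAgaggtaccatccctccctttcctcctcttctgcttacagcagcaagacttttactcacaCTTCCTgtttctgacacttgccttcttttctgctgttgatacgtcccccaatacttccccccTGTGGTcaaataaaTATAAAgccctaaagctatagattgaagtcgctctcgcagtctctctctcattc

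CD3E held 1 ETS and 1 E-box match, and CD3G 2 ETS matches, 1 E-box match and 1 GATA match, the last overlapping an ETS match. CD4 held 1 RUNX match. IL7R held 2 RUNX matches, 1 ETS match and the TATA box. Among members whose windows are not printed, CD5 held 2 ETS matches, CD8A 1 ETS match, LCK and CD28 1 E-box match each, and CD2 no match. Among the 19558 promoter windows of the same length in the genome, 24.9% held an ETS match, 19.6% the E-box, 14% a RUNX match, 9.77% the TATA box and 8.08% a GATA match. These are matches of letters only, and binding was not measured.

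Gene counts summed to between 36614639 and 61919211 per library (median 47564362). All 10 genes were counted in all 24 libraries. The tissue label was met by the adipocyte markers: adiponectin (ADIPOQ) ranged from 651 to 11155 CPM (counts per 1e+06 reads counted in genes), the fatty acid carrier FABP4 from 446 to 6622 CPM and the lipid droplet coat protein perilipin 1 (PLIN1) from 99.7 to 1438 CPM. Skeletal muscle genes were counted as well, unevenly between libraries. The summed CPM of 4 of them ran from 1.51 in a VE library to 31146 in a VEHT library. Its medians were 5062 CPM in VEHT, 2293 CPM in VE, 1463 CPM in HT and 233 CPM in C piglets. The part of muscle in the diet comparisons was not tested. The T cell genes were low beside the adipocyte markers, with medians over the 24 libraries of 6.00 CPM for CD2, 5.90 CPM for CD8A, 5.08 CPM for LCK, 5.01 CPM for CD3E, 2.93 CPM for CD3G, 2.28 CPM for CD3D, 2.16 CPM for CD4, 1.64 CPM for CD5, 0.945 CPM for IL7R and 0.131 CPM for CD28. Per kilobase of RefSeq exon the median order became CD2 (5.86 CPM per kb), CD3E (4.07), CD3D (3.01), CD3G (2.13), LCK (1.93), CD5 (0.810), CD4 (0.704), CD8A (0.639), IL7R (0.474) and CD28 (0.123). CD8A moved down this order because 9.23 kb of exon are annotated for it. CD28 rested on as few as 1 read and at most 366 reads per library, and IL7R on 2 to 621 reads, so their low values carry the widest counting error of the set.

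The spread between piglets was wide. The highest library exceeded the lowest by 107-fold for CD3G, the least variable member on this measure, and by 355-fold for CD28. Libraries C G041, C G047 and VEHT G141, called the 3 outlying libraries from here on, held the 3 highest values of 9 of the 10 genes. CD8A was the exception, with VEHT G162 at 35.8 CPM and HT G196 at 30.6 CPM above C G047 (21.4 CPM) and VEHT G141 (19.8 CPM). Together these 3 libraries carried between 35.3% (CD8A) and 80.4% (CD28) of the CPM summed over the 24 libraries. The same 3 libraries stood apart in other cell type markers. The mean log2 CPM of 15 macrophage genes was 8.93 to 9.25 in them and 3.67 to 6.73 in the other 21 libraries, that of 7 plasma cell genes 5.48 to 6.02 and -0.19 to 3.32, that of 9 B cell genes 2.63 to 3.15 and -2.01 to 0.72, and that of 7 genes of lymph node stroma and homing 4.99 to 5.47 and 1.33 to 2.84. Their 9 adipocyte genes averaged 6.63 to 7.24 log2 CPM, below the 7.77 to 9.97 of the other 21 libraries, and none of the adipocyte markers was at 0. The part of these other cells in the diet comparisons was not tested, and each comparison is given with and without the 3 libraries. Those libraries hold the highest values of the same genes, so leaving them out lowers C and VEHT by construction. The p-values of fits without them are descriptions only. In whole tissue, fewer T cells and less RNA of these genes per T cell cannot be told apart.

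The CD3 chains, which are the part of the receptor common to αβ and γδ T cells, had their highest medians in VEHT piglets and their lowest in VE piglets. CD3E ranged from 0.483 to 61.5 CPM in VEHT piglets (median 10.8), from 0.565 to 5.15 CPM in VE piglets (median 1.31), from 0.562 to 29.8 CPM in HT piglets (median 3.96) and from 0.705 to 90.7 CPM in C piglets (median 5.27). CD3D ranged from 0.399 to 32.7 CPM in VEHT piglets (median 4.10), from 0.272 to 2.91 CPM in VE piglets (median 1.13), from 0.257 to 8.95 CPM in HT piglets (median 1.74) and from 0.235 to 51.5 CPM in C piglets (median 3.18). CD3G ranged from 0.441 to 19.3 CPM in VEHT piglets (median 4.37), from 0.607 to 3.02 CPM in VE piglets (median 1.21), from 0.495 to 12.5 CPM in HT piglets (median 1.77) and from 0.737 to 47.04 CPM in C piglets (median 3.31). Every diet held at least 1 piglet with under 1 CPM of all 3 chains, so the groups overlapped at the low end, and they differed in how high their upper libraries reached. No VE library exceeded 5.15 CPM of any CD3 chain.

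The coreceptors and their kinase had the same ends of the order, VEHT with the highest and VE with the lowest median. CD8A, which binds MHC class I, ranged from 0.315 to 35.8 CPM in VEHT piglets (median 10.2), from 1.75 to 8.24 CPM in VE piglets (median 2.22), from 0.913 to 30.6 CPM in HT piglets (median 3.83) and from 0.982 to 44.0 CPM in C piglets (median 8.38). LCK, the kinase that starts signalling from the receptor, ranged from 1.09 to 38.7 CPM in VEHT piglets (median 9.74), from 0.544 to 6.00 CPM in VE piglets (median 2.50), from 1.29 to 22.7 CPM in HT piglets (median 3.39) and from 1.05 to 59.8 CPM in C piglets (median 7.30). CD4, which binds MHC class II on helper T cells and in humans is also found on monocytes and macrophages, ranged from 0.651 to 80.5 CPM in VEHT piglets (median 8.03), from 0.808 to 5.27 CPM in VE piglets (median 0.980), from 0.515 to 8.44 CPM in HT piglets (median 4.33) and from 0.519 to 60.3 CPM in C piglets (median 4.24). The high CD4 libraries were not always the high CD3 libraries. CD3E was under 1 CPM in 7 libraries, and in 4 of these CD4 was over 5 CPM: HT G008 (8.44 CPM of CD4 with 0.838 CPM of CD3E), C G206 (7.07 and 0.705 CPM), HT G012 (6.30 and 0.601 CPM) and VE G085 (5.27 and 0.565 CPM).

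CD2, an adhesion receptor of T and NK cells that binds CD58, ranged from 1.35 to 73.3 CPM in VEHT piglets (median 13.5), from 0.866 to 7.28 CPM in VE piglets (median 1.59), from 0.726 to 21.7 CPM in HT piglets (median 6.02) and from 1.20 to 115 CPM in C piglets (median 6.96). CD5, a receptor that dampens T cell receptor signals, ranged from 0.441 to 36.7 CPM in VEHT piglets (median 5.08), from 0.167 to 2.49 CPM in VE piglets (median 0.749), from 0.211 to 9.69 CPM in HT piglets (median 1.18) and from 0.192 to 32.2 CPM in C piglets (median 1.64). CD28 stayed under 1 CPM in the 21 libraries other than C G041 (4.50 CPM), C G047 (2.67 CPM) and VEHT G141 (6.68 CPM). Its medians were 0.115 CPM in VEHT piglets, 0.0497 CPM in VE piglets, 0.136 CPM in HT piglets and 0.279 CPM in C piglets.

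IL7R, like CD28, had its highest median in C piglets and not in VEHT piglets, and it departed from all the other genes in its lowest diet. It ranged from 0.739 to 11.3 CPM in VEHT piglets (median 1.14), from 0.151 to 1.38 CPM in VE piglets (median 0.799), from 0.140 to 1.09 CPM in HT piglets (median 0.172) and from 0.0453 to 10.5 CPM in C piglets (median 4.29). HT was thus the lowest diet for this gene alone, with 4 of 6 HT libraries between 0.140 and 0.173 CPM. The C group held both the lowest library of the series (G025, 0.0453 CPM) and the highest outside the 3 outlying ones (G117, 5.93 CPM).

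**Figure D1:**
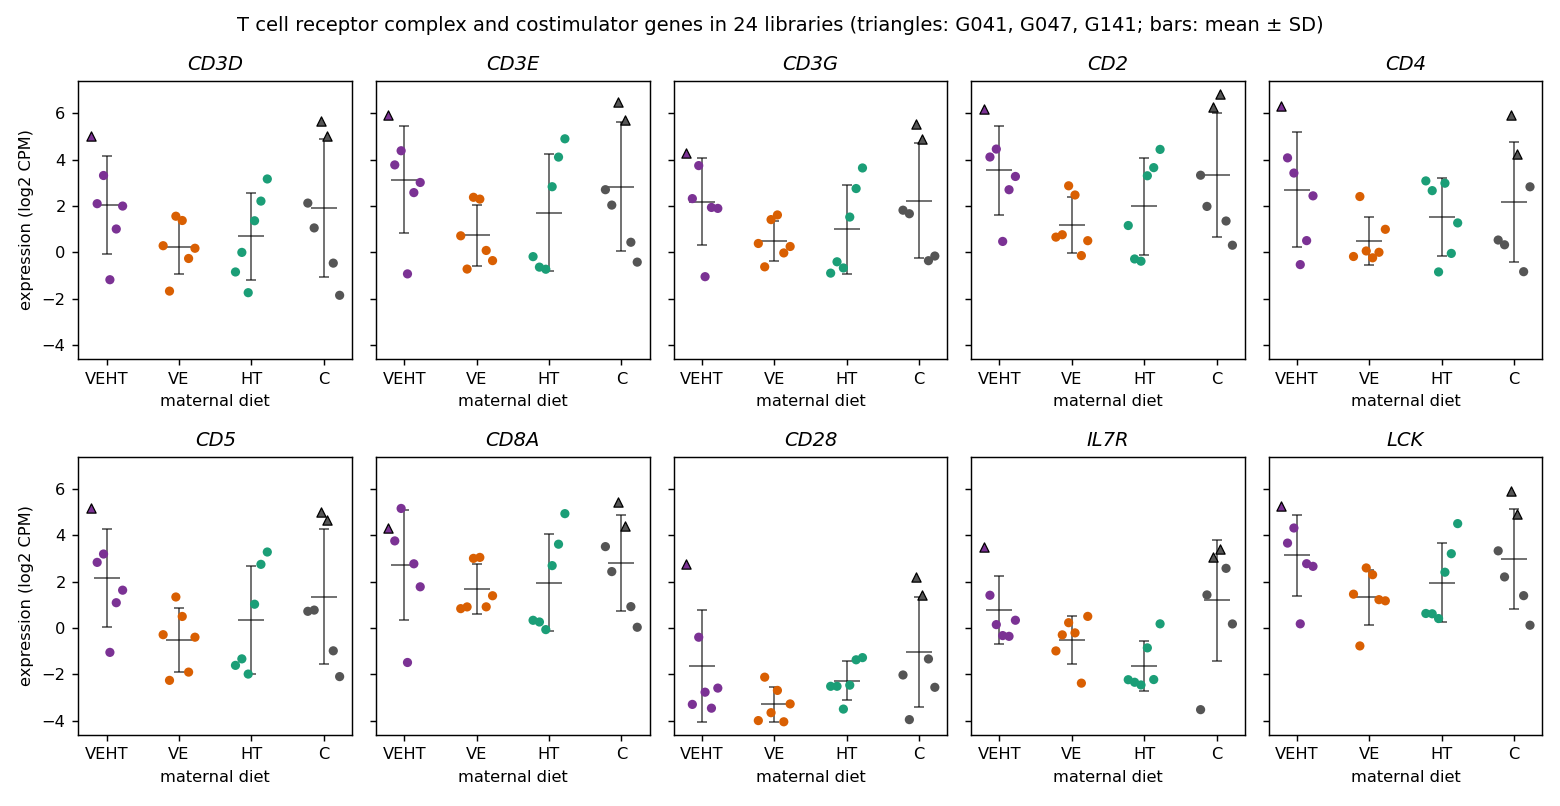
Log2 CPM of each of the 10 genes in every library, by maternal diet, with 6 points per diet, bars for mean ± SD and triangles for C G041, C G047 and VEHT G141. The triangles are the 3 highest points in every panel but CD8A, VE points form the narrowest group for most genes, and for IL7R the HT group has the lowest median, although the lowest single point is C G025.

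Differences between diets were tested with edgeR's quasi-likelihood F test over all genes, fitted for every 2 diets on their 12 libraries alone, and a gene was called at an adjusted p (q, Benjamini-Hochberg) of at most 0.1 with a fold change of at least 1.5. High vitamin E alone was set against the control first. All 10 log2 fold changes of VE over C were negative, with values of -4.19 ± 1.18 (SE) for CD28, -3.57 ± 1.14 for CD2, -3.55 ± 1.19 for CD3E, -3.47 ± 1.24 for CD5, -3.44 ± 1.19 for CD3D, -3.21 ± 1.03 for CD3G, -3.11 ± 1.11 for CD4, -2.61 ± 0.89 for IL7R, -2.60 ± 0.93 for LCK and -1.88 ± 0.86 for CD8A. None of these 10 was called by edgeR (q 0.31 to 0.41), where 0% of the 17532 genes tested were called. At an unadjusted p below 0.05 all 10 were lower, against 8.77% of all genes. Most members varied together across libraries, as described below. Counts of members, here and in the later comparisons, are therefore not counts of separate results. DESeq2 called 9 of the 10, all but CD8A, against 4.07% of genes called lower, and limma voom with quality weights called 0. Without G041 and G047 the fold changes shrank to between -1.52 (IL7R) and -0.06 (CD5), and no member had an unadjusted p below 0.05.

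Hydroxytyrosol alone against the control also gave 10 negative fold changes. IL7R showed the widest difference, -3.71 ± 0.98 (q = 0.335 in edgeR), followed by CD28 at -2.84 ± 1.07 (q = 0.342 in edgeR). The other 8 ran from -2.50 (CD3D) to -0.86 (CD8A) with unadjusted p above 0.05. edgeR called 0 of the 10 and 0% of the 17468 genes tested, and at an unadjusted p below 0.05 the 2 members named compare with 10% of genes lower. DESeq2 called IL7R and CD28, against 3.87% of genes called lower, and voom called 0. Without G041 and G047 the sign of 9 of the 10 turned, to between 0.15 (CD28) and 1.57 (CD5), none with an unadjusted p below 0.05, while IL7R stood at -2.62 ± 0.93, below an unadjusted p of 0.05 (as were 3.51% of genes on that side) and not called by edgeR.

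Between VEHT and C piglets no member showed a difference that the test could separate from the spread. Fold changes ran from -0.83 ± 1.07 (CD3G) to 0.50 ± 1.27 (CD4), 7 of them negative, and edgeR called 0 members and 0% of 17607 genes. No member had an unadjusted p below 0.05 (0.738% of genes were higher and 1.36% lower at that limit), and DESeq2 and voom called 0 members, with 0.00568% of genes called by DESeq2 and 0% by voom. The standard errors of 0.96 to 1.41 log2 units set the size of difference that these 12 libraries could show. Without the 3 libraries 9 of the 10 were positive, and CD5 was at 2.06 ± 0.86, the only one below an unadjusted p of 0.05 (with 1.95% of genes), while edgeR called 0. That fit drops more libraries with high values of these genes from C than from VEHT, so its p-values are descriptions only. Leaving out a single library turned the sign of 9 of the 10 genes at least once, all but IL7R.

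With high vitamin E in both diets, VEHT piglets were set against VE piglets. All 10 log2 fold changes were positive, with values of 4.38 ± 1.37 for CD28, 3.63 ± 1.09 for CD4, 3.53 ± 1.02 for CD5, 3.16 ± 0.96 for CD3E, 3.01 ± 0.88 for CD2, 2.79 ± 0.93 for CD3D, 2.37 ± 0.73 for CD3G, 2.32 ± 0.75 for LCK, 2.12 ± 0.80 for IL7R and 1.75 ± 0.81 for CD8A. None passed in edgeR (q 0.44 to 0.553), which called 0% of 17525 genes. At an unadjusted p below 0.05 there were 9 members, all but CD8A, against 5.87% of genes higher. DESeq2 called 7 members, against 1.16% of genes called higher, and gave no adjusted p for CD28, and voom called 0. Without VEHT G141 all 10 were positive, from 0.72 (IL7R) to 2.14 (CD5), 6 of them with an unadjusted p below 0.05 (3.75% of genes) and none called.

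With hydroxytyrosol in both diets, all 10 fold changes of VEHT over HT were positive. IL7R differed most, at 3.20 ± 0.88 (q = 0.583 in edgeR), then CD28 at 2.99 ± 1.23 (q = 0.598 in edgeR). The other 8 lay between 0.71 (CD8A) and 2.24 (CD4) with unadjusted p above 0.05. edgeR called 0 members and 0% of 17469 genes, and the 2 members below an unadjusted p of 0.05 compare with 6.33% of genes higher. DESeq2 called IL7R, against 0.635% of genes called higher, gave no adjusted p for CD28, and voom called 0. Without VEHT G141, IL7R was at 1.81 ± 0.59, below an unadjusted p of 0.05 (with 2.96% of genes) and not called, and the other 9 were between 0.12 and 0.53.

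VE against HT piglets, a pair that holds none of the 3 outlying libraries, gave negative fold changes for 9 genes, from -1.92 ± 0.97 (CD3E) to -0.94 ± 0.76 (CD3D), and a positive one for IL7R, 1.09 ± 0.61. edgeR called 0 members and 0% of 17397 genes, no member had an unadjusted p below 0.05 (4.91% of genes were higher and 4.61% lower at that limit), and DESeq2 and voom called 0 members, against 0.598% and 0% of genes. In the model over 24 libraries, the mean effects of vitamin E (-1.17 for CD3E to 0.29 for IL7R) and of hydroxytyrosol (-0.81 for IL7R to 0.92 for CD4) called 0 members and 0% of 17602 genes in edgeR. No member had an unadjusted p below 0.05 for either effect (1.66% of genes higher and 2.27% lower for vitamin E, 2.84% and 3.38% for hydroxytyrosol). For the vitamin E effect DESeq2 called 0 members and 0.0682% of all genes, and voom 0 members and 0.0114%. For the hydroxytyrosol effect DESeq2 called 0 members and 0.0398% of all genes, and voom 0 members and 0%. Without the 3 outlying libraries the hydroxytyrosol effect was positive for 9 genes, from 0.83 (CD28) to 1.86 ± 0.71 (CD5), and -0.94 ± 0.54 for IL7R. CD5, CD3E, CD4, CD3G and CD2 then had an unadjusted p below 0.05 (4.64% of genes on that side), and edgeR called none. The libraries left out held high values of these same genes, more of them in C than in VEHT, so these p-values are descriptions only.

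The factorial model also asked whether the vitamin E difference changed with hydroxytyrosol, as the log2 difference VEHT over VE minus HT over C, and here genes were called on q alone. edgeR called 5 of the 10 genes, all positive, where 3.95% of 17602 genes were called and 3.68% were called positive. They were IL7R at 5.79 ± 1.29 (SE; q = 0.038), CD28 at 7.16 ± 1.78 (q = 0.0522), CD2 at 5.23 ± 1.56 (q = 0.0857), CD4 at 5.32 ± 1.63 (q = 0.0957) and CD3D at 5.26 ± 1.62 (q = 0.096). The other 5 were also positive: CD5 at 5.33 ± 1.73 (q = 0.12), CD3G at 4.34 ± 1.42 (q = 0.123), LCK at 3.84 ± 1.30 (q = 0.139), CD3E at 4.76 ± 1.69 (q = 0.162) and CD8A at 2.60 ± 1.36 (q = 0.383). The 3 CD3 genes thus fell on both sides of the threshold with estimates that differ by less than 1 SE. At an unadjusted p below 0.05 there were 9 members, all but CD8A, against 11.5% of genes. The median over the 10 was 5.24, against 0.02 over all genes tested. Since most members varied together, this count and this median do not stand for separate results.

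The count of calls depended on the tool and on single libraries. DESeq2 called 9 members, all but CD8A, against 6.37% of genes called positive. Voom with quality weights, which gives outlying libraries less weight, called 0 members and 0% of genes, with IL7R alone at an unadjusted p below 0.05 (3.54% of genes). Without G041, G047 and G141 edgeR called 0 members and 0% of genes, and DESeq2 0 members and 0.017% of genes. The interaction was then between 0.56 (CD5) and 1.38 (CD28) for 9 genes, and 3.34 ± 1.07 for IL7R, the only member with an unadjusted p below 0.05 (2.08% of genes were positive at that limit). Leaving out 1 library at a time, the count of members called was 0 without VEHT G141 (0% of all genes called), 1 without C G041 (0.812%) and 1 without C G047 (0.828%). It was 1 to 3 without any 1 of the 6 VE libraries (1.1% to 3.77% of all genes), 1 or 2 without HT G008, G012, G066, G121 or G189 (1.05% to 2.16%), and 2 without VEHT G148 (3.5%) or G162 (3.46%). It was 8 without VEHT G164 (5.6% of all genes), 8 without C G117 (4.99%) and 9 without C G206 (6.17%), whose CD3E values of 0.483, 1.31 and 0.705 CPM were low for their diets. The count was also 7 without C G025 (5.33%), C G035 (5.54%) or HT G196 (4.21%), 5 without VEHT G173 (4.65%) and 4 without VEHT G208 (3.67%). HT G196 held the highest CD3E value of its diet (29.8 CPM), and C G025 (6.48 CPM) lay above the C median of 5.27 CPM. What set these counts was not tested.

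**Figure D2:**
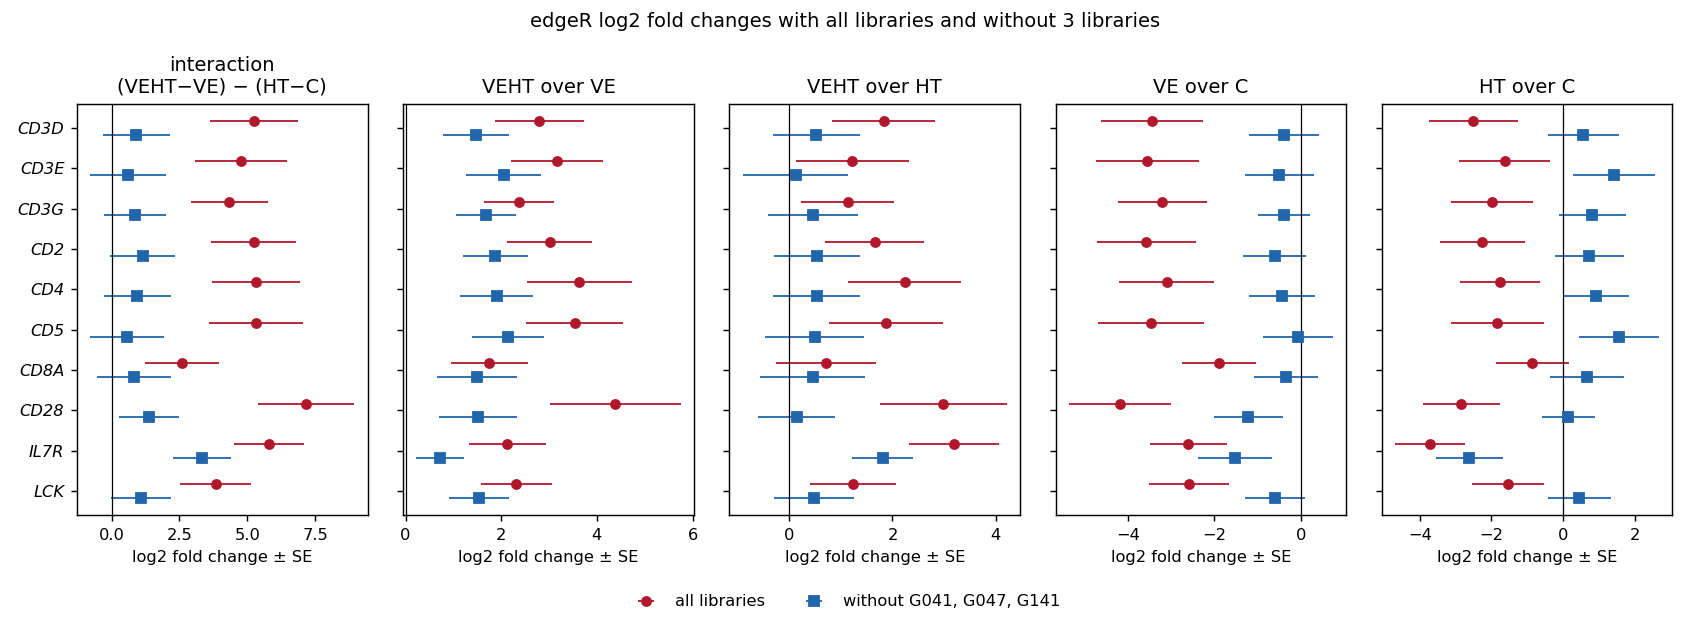
Log2 fold changes ± SE of the 10 genes from edgeR, for the interaction and 4 pairs of diets, with all libraries (circles) and without G041, G047 and G141 (squares). For HT over C the squares of all genes but IL7R lie right of 0 and their circles left of it, and for VEHT over VE both lie right of 0.

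The 10 genes did not behave as a single block across piglets. CD3D, CD3E, CD3G, CD2, CD5, CD8A and LCK varied together: the lowest correlation among these 7 was 0.90 over 24 libraries and 0.89 over the 21 others, both for log2 CPM. CD28, CD4 and IL7R did not follow them. Their median correlation with the other 9 genes was 0.71, 0.58 and 0.55 over 24 libraries and 0.36, 0.20 and 0.15 over 21, and IL7R with CD28 reached only 0.06 over 21. These are descriptions over libraries that share their diets and their cell mixture, and for CD28 and IL7R low counts also widen the scatter. Over 21 libraries IL7R correlated at 0.64 with the mean of the macrophage genes and at 0.66 with that of 4 neutrophil genes, against 0.24 with that of 22 T cell signalling genes. Across the T cell lists it ran from 0.10 (transcription factors) to 0.39 (cytokines and receptors). It was 0.45 with dendritic cell, 0.42 with B cell, 0.16 with NK and cytotoxic and 0.15 with plasma cell genes. CD8A correlated at 0.98 with the mean of 10 NK and cytotoxic genes, which was not particular to it, since CD3E reached 0.97, CD3G 0.96, CD2 and LCK 0.95, and CD3D and CD5 0.94. CD4 correlated at no more than 0.41 with the mean of any list, the highest being that of lymph node stroma and homing, and at 0.14 with that of the macrophage genes.

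**Figure D3:**
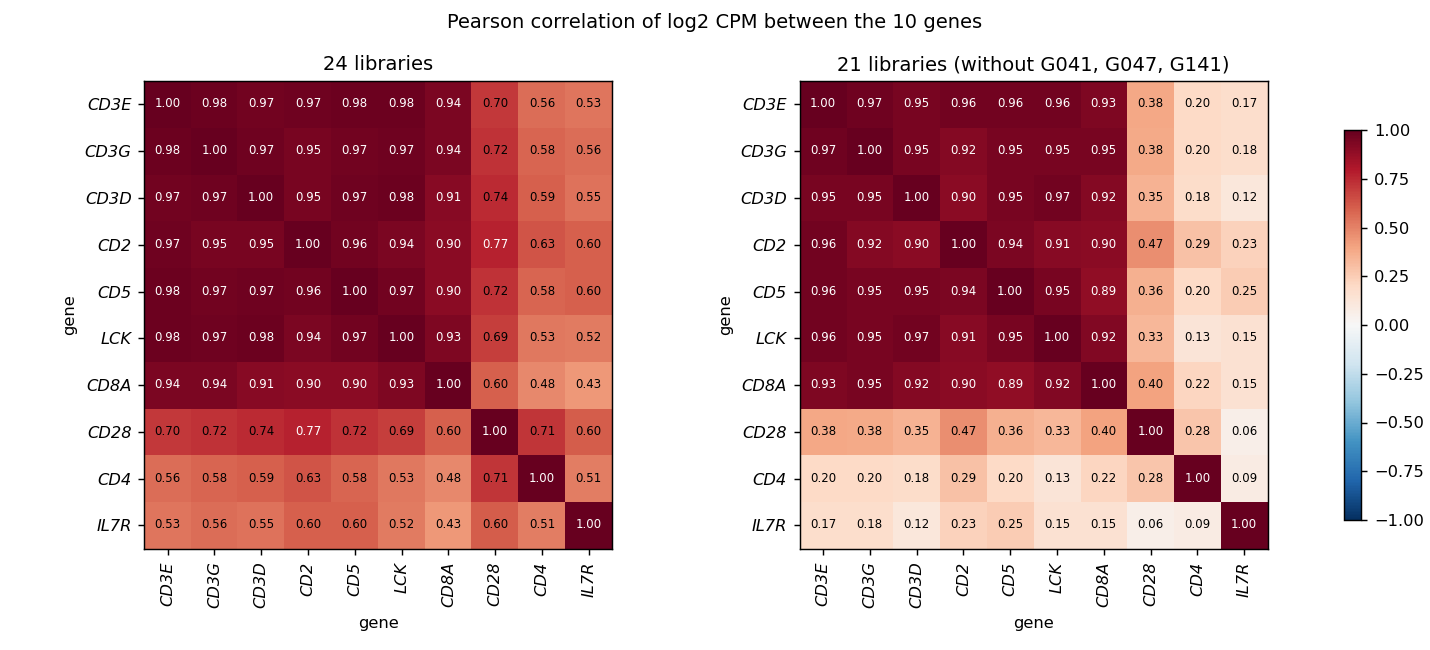
Pearson correlation of log2 CPM between each 2 of the 10 genes over 24 libraries (left) and over the 21 libraries other than G041, G047 and G141 (right), from -1 to 1. The 7 genes at the top left correlate at 0.89 or more in both panels, and CD28, CD4 and IL7R fade to between 0.06 and 0.47 in the right panel.

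Ratios between members asked whether the relative levels of these genes differed by diet, apart from their amount. The ratios of the closely tracking genes to CD3E varied little: the SD over 24 libraries, in log2 units, was 0.50 for CD5, 0.56 for CD2, 0.61 for CD3G, 0.62 for CD3D, 0.72 for LCK and 0.87 for CD8A. It was 1.69 for CD28, 2.10 for CD4 and 2.11 for IL7R. Of 60 comparisons, 10 ratios in 6 pairs of diets, none passed a 2-sided exact permutation test after Benjamini-Hochberg adjustment (smallest adjusted p = 0.668), and 1 had an unadjusted p below 0.05. That 1 was CD8A over CD3E, with a mean log2 ratio of -0.41 ± 0.91 in VEHT piglets and 0.95 ± 0.62 in VE piglets (SD, n = 6 each), a difference of -1.37 (exact permutation p = 0.0195 over 924 divisions). The log2 ratio of CD4 over CD8A averaged -0.01 ± 1.66 in VEHT, -1.18 ± 1.76 in VE, -0.44 ± 2.82 in HT and -0.63 ± 2.10 in C piglets, and each diet held libraries above and below 0. This ratio does not measure helper against cytotoxic T cells here, because CD4 did not follow CD3E and NK cells also carry CD8A.

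**Figure D4:**
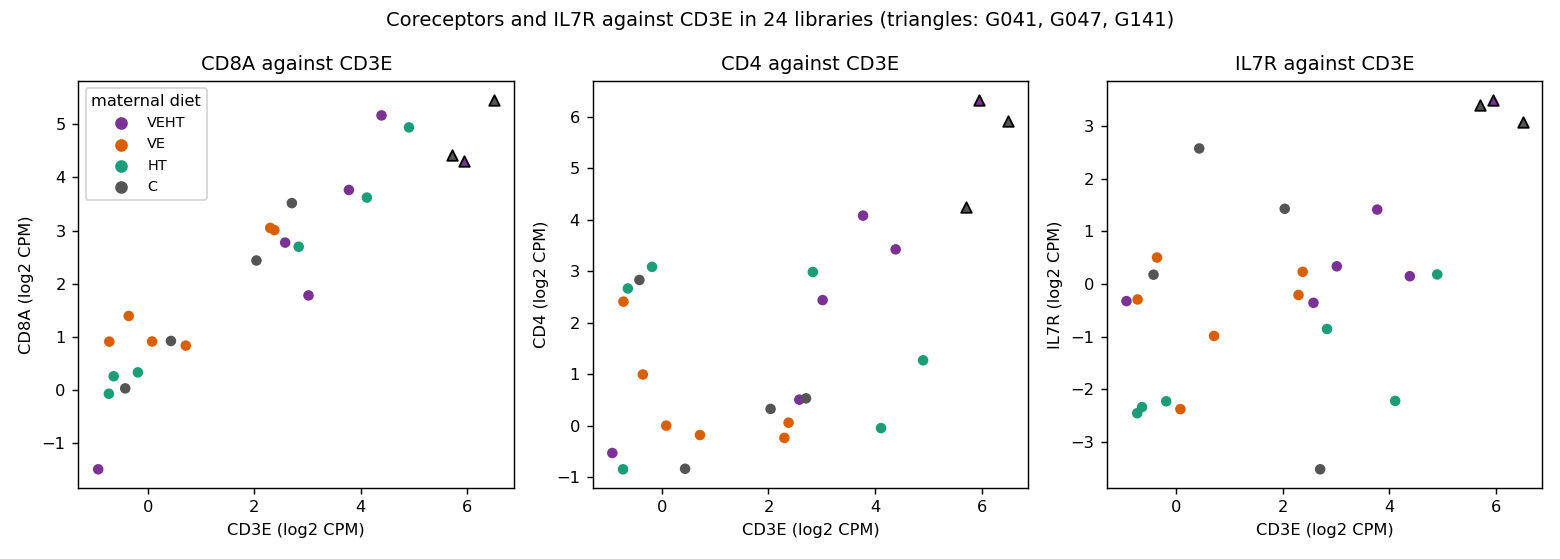
CD8A, CD4 and IL7R against CD3E in every library, all in log2 CPM, coloured by diet, with triangles for G041, G047 and G141. CD8A rises with CD3E along a narrow band, while CD4 and IL7R scatter, and at low CD3E the CD4 values of HT G008, HT G012, VE G085 and C G206 lie far above those of other libraries.

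Other genes that act in T cells were also positive in the interaction, and their lists are described by counts and medians only, beside 3.68% of all genes called positive and a median of 0.02. These lists are not particular to T cells, since they hold genes that other leukocytes carry too, such as PTPRC, VAV1 and IKZF1. Of 18 further coreceptors, checkpoint receptors and ligands of such receptors, edgeR called 11, all positive, and the median was 4.87. The ligands in that list are CD80, CD86, CD274, CD58 and CD48, which cells other than T cells also carry. Those with the smallest p were LAG3 at 8.98 ± 1.90 (q = 0.0362) and TIGIT at 4.76 ± 1.06 (q = 0.038), both inhibitory receptors, and TNFRSF9, the costimulator 4-1BB, at 7.92 ± 2.02 (q = 0.0552). Of 22 signalling genes 4 were called positive (median 2.95), led by the adaptors LCP2 at 4.93 ± 1.28, SKAP1 at 4.44 ± 1.29 and SH2D2A at 4.14 ± 1.25. Of 14 transcription factors 3 were called positive (median 2.81), namely TCF7 at 4.69 ± 1.25, IKZF1 at 3.88 ± 1.12 and RUNX1 at 3.22 ± 0.98. Of 11 cytokines and receptors 4 were called positive (median 3.17), among them IL2RG, the chain that pairs with IL7R, at 5.80 ± 1.45, IL21R at 7.73 ± 2.01 and JAK3, the kinase bound to IL2RG, at 4.45 ± 1.19. None of these genes was called without the 3 libraries, where the medians of the 4 lists were 0.46, 0.23, 0.52 and 0.17.

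Markers of other cells were also called in this contrast, where 3.68% of all genes were called positive. edgeR called 10 of 15 macrophage genes (median 3.83), 6 of 7 plasma cell genes (9.31), 6 of 7 dendritic cell genes (5.69), 3 of 4 neutrophil genes (7.08), 2 of 9 B cell genes (4.06), 2 of 10 NK and cytotoxic genes (2.94) and 3 of 7 genes of lymph node stroma and homing (2.98), all positive, with CCR7 in both the dendritic and the lymph node list. The smallest p of each list belonged to LYZ, a lysozyme, at 7.10 ± 1.60 (with MARCO and ITGAM next), to JCHAIN, the joining chain of secreted antibody, at 10.76 ± 2.08 (with MZB1 and POU2AF1), to FLT3, a growth factor receptor of dendritic cells, at 6.94 ± 1.54 (with CCR7 and IRF8), and to CSF3R, the receptor of a neutrophil growth factor, at 8.57 ± 1.85 (with S100A8 and MMP9). They belonged further to BLK, a B cell kinase, at 8.95 ± 2.02 (with BLNK and BANK1), to NKG7, a cytotoxic granule protein, at 4.02 ± 1.23 (with EOMES and NCR1), and to CCL19, a chemokine that draws T cells into lymph nodes, at 5.96 ± 1.32 (with CCR7 next). Of 9 adipocyte genes 1 was called, lipoprotein lipase (LPL) at -1.78 ± 0.53 (with LEP and CIDEC next), and the median was -1.15. Of 6 endothelial genes, led by EMCN, TEK and CDH5, and of 4 skeletal muscle genes, led by ACTA1, TNNI2 and TNNT3, 0 were called, with 0 at an unadjusted p below 0.05 in edgeR and 0 called by DESeq2 or voom. Without the 3 libraries none of these was called, and the part of other cells in the interaction of the T cell genes was not tested.

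Outside the lists, the named genes whose log2 CPM most resembled the mean of the 10 members over the 24 libraries were ITGB7 (Pearson 0.986), RASAL3 (0.976), PRKCB (0.973), SPN (0.972), PVRIG (0.972), CD38 (0.971), CORO1A (0.969), ITGAL (0.964), LAX1 (0.963) and IL12RB1 (0.962). Over the 21 libraries without G041, G047 and G141 the same 10 correlated at between 0.916 (ITGAL) and 0.980 (RASAL3). The integrin chains ITGB7 and ITGAL, the sialoglycoprotein SPN and the actin regulator CORO1A are carried by leukocytes at large and are not particular to T cells.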

How the data were processed

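Total RNA of 24 fat samples was sequenced as polyadenylated RNA. The authors deposited raw read counts per Ensembl gene, made, per the study's methods and the submitters' processing notes, by trimming with Trim Galore, mapping to Sscrofa11.1 with HISAT2 and counting with HTSeq; versions, the annotation release and the strand setting are not given in the sources used here. Rows that name no gene were left out; reads in no feature were 8.31% to 16.5% of each library's total. Columns carry an animal number and a diet, so libraries were mapped to diets, not to replicate numbers. The authors' own tables of fold changes and p-values were not used.

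CPM are the deposited counts over each library's total of gene counts, and log2 CPM had a prior count of 2, scaled to library size, added to each count; neither used TMM factors. TMM factors scaled the edgeR fits, and log2 fold changes come from those fits. The SE printed with an edgeR fold change was derived from its test, as the absolute log2 fold change over the square root of the F statistic. Genes at 0 in 75% or more of the libraries compared were dropped. edgeR 4.0.16 (R 4.3.3) gave the main tests, with DESeq2 1.42.0 and limma 3.58.1 (voom) as alternatives beside other filters, scalings and libraries left out. The main effects were called like the pairs of diets. Named genes are all 10 members, the 3 genes with the smallest interaction p of each list, the 10 genes most alike to the members and 3 adipocyte markers; neighbours of single members were named after their values were seen. A gene that this rule names and a promoter's motif matches are not reported here. Members and lists were chosen with earlier results of these data known. Symbols were available for 14858 genes, CD3G included, and list genes without one were left out. Promoters are the 250 bases before the RefSeq gene start. Counts are of reads and do not separate molecules from amplified copies. Since the strand setting is unknown, reads of overlapping genes on opposite strands cannot be told apart.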

Additional observations from a re-analysis of the deposited data

Results flagged for a closer look

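For 5 genes the vitamin E difference with hydroxytyrosol differed from that without it, by edgeR's interaction term: CD3D by 5.26, CD2 by 5.23, CD4 by 5.32, CD28 by 7.16 and IL7R by 5.79 log2 units (q 0.038 to 0.096). Libraries C G041, C G047 and VEHT G141 hold the highest values of these 5 genes, and without them none was called.

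Among 80 sets of 6 values, each a gene or a ratio in 1 diet, 2 held a library far from the other 5 by Dixon's criterion, which chance gives in about 1 of 20 sets. The log2 ratio of CD2 over CD3E was 1.40 in VEHT G164, with 0.34 as the nearest other value. The log2 ratio of CD4 over CD3E was 3.25 in C G206, with -0.59 as the nearest other value.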

How the results depend on the processing

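Counts of members called changed as follows. DESeq2 called 9 members in VE vs C, 2 in HT vs C, 7 in VEHT vs VE, 1 in VEHT vs HT and 9 for the interaction, where edgeR called 0, 0, 0, 0 and 5. For the interaction, voom called 0, edgeR without G041, G047 and G141 called 0, DESeq2 without them (an alternative chosen after seeing the data) called 0, and a q of at most 0.05 left 1, IL7R. Leaving out 1 library at a time gave 0 to 9 members, fewer than with all libraries in 16 of 24 cases, by over 1.5 times, while 0% to 6.17% of all genes were called. Other alternatives (RLE factors, no filter, filterByExpr, all 24 libraries in 1 fit) gave the same counts. Leaving out 1 library turned the sign of no member for the interaction or 5 of the pairs, of 9 members in VEHT vs C, of 6 for the hydroxytyrosol effect and of 2 for the vitamin E effect. For VE vs C, voom turned CD3D to 0.038 and CD8A to 0.076. For HT vs C, voom turned CD3D to 0.71, CD3E to 0.84, CD3G to 0.49, CD2 to 0.37, CD4 to 0.24, CD5 to 1.00, CD8A to 0.70 and LCK to 0.47. For the same pair without G041 and G047, edgeR and DESeq2 gave 0.56 and 0.54 for CD3D, 1.43 and 1.41 for CD3E, 0.82 and 0.82 for CD3G, 0.74 and 0.72 for CD2, 0.92 and 0.95 for CD4, 1.57 and 1.57 for CD5, 0.68 and 0.66 for CD8A, 0.15 and 0.15 for CD28, and 0.46 and 0.44 for LCK. For VEHT vs HT, voom turned CD28 to -0.20. The cause was not tested beyond the libraries left out. Of 60 ratios none passed after adjustment under any setting. No paired analysis was possible because the columns carry no replicate number. Low counts limit CD28 and IL7R most, and 6 piglets per diet with spreads of this size limit every pair.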

Other observations

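Genes closest to the members that did not follow CD3E were looked up over the 21 libraries other than G041, G047 and G141, a choice made after seeing the data. IL7R was closest to DUOX2, a peroxide-forming oxidase (Pearson 0.857), to MSR1, a macrophage scavenger receptor (0.839), to DCSTAMP (0.831), a fusion protein of osteoclasts and dendritic cells, to GPNMB (0.820) and to the trehalase TREH (0.811). CD28 was closest to CXCR6, a chemokine receptor of tissue T cells (0.696), then to SEZ6 (0.692), TMC1 (0.691), XPO1 (0.674) and the checkpoint receptor HAVCR2 (0.668). Over 24 libraries these stood at 0.901 for CXCR6, 0.689 for SEZ6, -0.310 for TMC1, 0.063 for XPO1 and 0.908 for HAVCR2. CD4 had no close neighbour, with AGMAT (0.666) and CNBD2 (0.651) first. CD8A was closest to SPN (0.977), SAMD3 (0.974) and TBX21 (0.972), the transcription factor of type 1 cytotoxic and helper cells. These correlations describe libraries that share diets and cell mixture and were picked from all named genes, and no shared control is implied.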
